A study of Homo sapiens with 46 samples.

Results

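The genes described here are NFE2L2, which encodes the transcription factor NRF2, and 8 genes known as its targets, HMOX1, NQO1, GCLM, GCLC, SRXN1, TXNRD1, FTH1 and FTL. They were chosen by name, with earlier results of these data known, and make up 9 of the 58735 genes listed; all 9 were among the 20272 genes with enough reads to be tested. HEK293T cells, an established line of human embryonic kidney origin described as wild type, were transfected with the help of Endo-Porter for 48 hours with a peptide-morpholino chimera at 2 µM. Each chimera joined the yeast presequence pCox4, which leads into mitochondria, to an antisense morpholino against 1 mRNA encoded by mitochondrial DNA. The 11 treatments silenced ND1, ND2, ND3, ND4L or ND5 of complex I, CYTB of complex III, COX1, COX2 or COX3 of complex IV, and ATP6 or ATP8 of the ATP synthase. The control was pCox4 in the click reaction buffer with no morpholino, so an effect of silencing and an effect of any morpholino inside mitochondria cannot be told apart. There were 46 libraries of 12 conditions, 4 for each condition but 3 for COX2, which lacks replicate 1, and 3 for ND2, which lacks replicate 2. Of the replicates, 1 and 2 formed batch 1 (22 libraries) and 3 and 4 batch 2 (24 libraries), which the study's methods give as different days and reagent batches. All 11 treatments were compared with the same 4 control libraries, so their results are not independent of each other.

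NRF2 is held in the cytosol by the adaptor KEAP1, which hands it to a ubiquitin ligase for continuous degradation. Oxidants and electrophiles modify cysteines of KEAP1, NRF2 then accumulates, enters the nucleus and pairs with a small MAF protein on the antioxidant response element of its target genes. Because the control lies in protein stability, the mRNA of NFE2L2 itself need not move when the pathway does. The targets make glutathione, recycle thioredoxin and peroxiredoxin, break down heme and quinones and store iron, and mitochondrial reactive oxygen species are one known source of the oxidants. The transcriptome can show only the mRNA side of that response, and with cells lysed in bulk, a change in a share of cells and a change in RNA per cell cannot be told apart.

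Total counts were 18876395 to 100698084 per library (median 23413171), and only COX3 replicate 4 exceeded 28121898. Levels below are CPM (read counts relative to the library's total) scaled by the TMM method, and log2 fold changes are fitted with a term for the batch. A test was called at an adjusted p under 0.05. KRT8 (338 to 518 CPM on unscaled totals), KRT18 and NEFL, which HEK293 cells are known to express, were detected in all libraries. So were PAX2 (4.81 to 9.96 CPM), NES (4.92 to 8.89 CPM) and NEFM (0.451 to 2.00 CPM), looked up for the same line but lower. PTPRC, ALB, PECAM1 and HBB, markers of blood, liver, endothelial and red blood cells, did not exceed 0.713 CPM in any library. COL1A1, a fibroblast marker, lay between 20.1 and 31.6 CPM, above PAX2, NES and NEFM. The chimeras are designed to block translation, so the level of the targeted mRNA does not in general check the labels. For COX1 the paper reports a strong loss of the mRNA under its own chimera. The targeted mRNA was lower for COX1 (log2 fold change -1.33), COX3 (-0.49) and CYTB (-0.33) and higher for ND1 (0.79), ND2 (1.02) and ND3 (0.80) among the treatments where that test was called.

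Per gene length, expressed as RPKM, the members spanned a wide range. FTL, the light subunit of ferritin, was the highest at 292 RPKM on average over the 46 libraries. FTH1, the heavy subunit, which carries the ferroxidase activity, followed with 58.4 RPKM, then TXNRD1 with 40.9 and HMOX1 with 39.0. NFE2L2 itself stood at 12.4, GCLM at 10.5 and GCLC at 9.10 RPKM. SRXN1 with 4.19 and NQO1 with 1.29 RPKM were the lowest. NQO1 thus rested on 45 to 345 reads a library and SRXN1 on 155 to 1227, while every other member had at least 769 in each library. Both upper ends came from COX3 replicate 4, the deepest library. Elsewhere NQO1 had at most 164 reads and SRXN1 at most 384. The ranges of TXNRD1 (32.1 to 51.6 RPKM) and HMOX1 (19.6 to 55.0 RPKM) overlapped, as did those of NFE2L2 and GCLM.

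**Figure D1:**
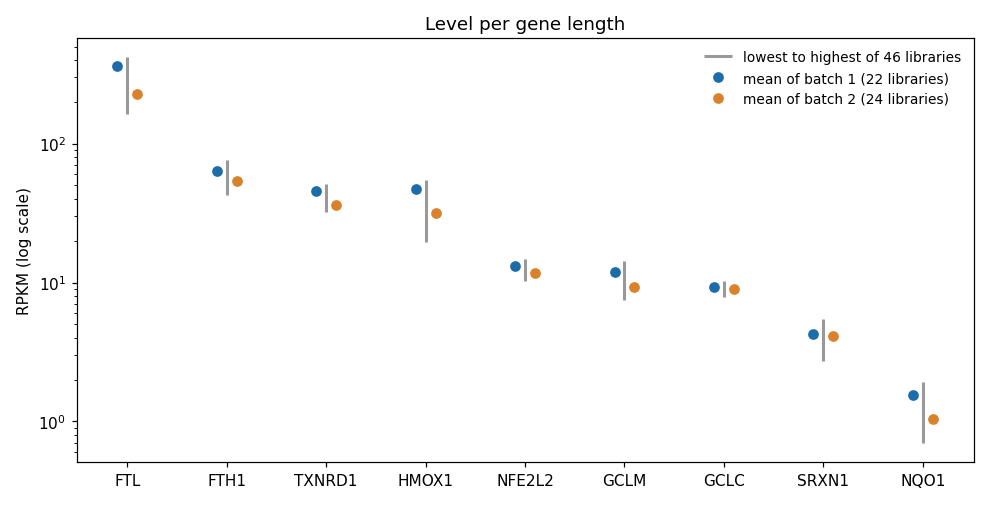
Level of each gene in RPKM on a log axis, with the lowest and highest of 46 libraries as a grey line and the means of batch 1 (22 libraries) and batch 2 (24 libraries) as points. FTL stands above all other members, at 361 RPKM in batch 1 and 229 in batch 2, and NQO1 lies lowest, at 1.55 and 1.04.

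The members are spread over 9 chromosomes (GRCh38, GENCODE release 29 gene spans). NFE2L2 lies at chr2:177227595-177392697 on the minus strand, HMOX1 at chr22:35380361-35394214 on the plus strand and NQO1 at chr16:69706996-69726951 on the minus strand. The glutathione pair lies at chr1:93885205-93909456 (GCLM, minus strand) and chr6:53497341-53616970 (GCLC, minus strand). SRXN1 occupies chr20:646615-653370 on the minus strand and TXNRD1 chr12:104215779-104350305 on the plus strand. FTH1 lies at chr11:61959718-61967660 on the minus strand and FTL at chr19:48965301-48966878 on the plus strand. Reads of near-identical copies are a limit for the ferritins, since 25 annotated FTH1 pseudogenes held 1.94 to 4.42% as many reads as FTH1 (FTH1P2 the most) and 16 FTL pseudogenes 0.103 to 0.719% (FTLP12 the most). NFE2L2 shares its span with AGPS on the opposite strand, which held 198% as many reads on average. TXNRD1 contains the pseudogene RPL18AP3, which held 54.8% as many reads and lies on the same strand, so that strand could not separate them. Whether counting used strand is not given in the sources used here.

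Only 1 of the 99 tests of a member in a treatment was called, and in it HMOX1 rose after COX2 silencing. The call stood in a treatment where 0.469% of all genes tested were called. No member was called after silencing of CYTB (0.548% of all genes called), COX1 (0.0543%) or COX3 (0.306%). None was called after silencing of ND1 (0.0888%), ND2 (0.0247%), ND3 (0.00987%), ND4L (0.148%) or ND5 (0.158%), nor of ATP6 (0.00987%) or ATP8 (0.0641%). At an unadjusted p under 0.05, 29 of the 99 member tests were higher and 4 lower; over all genes 5.38% of tests were higher and 4.41% lower. DESeq2 called 2 of the 99, HMOX1 after COX2 silencing and SRXN1 after CYTB silencing. It gave no adjusted p for NQO1 after ND4L, ND5 or ATP8 silencing, nor for SRXN1 after ATP8 silencing. By direction alone, 66 of the 99 fold changes lay above 0. HMOX1, NQO1, SRXN1 and TXNRD1 lay above the control in all 11 treatments, a pattern seen in 11.8% of all genes. In 19 member tests every treated library lay above every control library of its own batch, against 5.78% of all tests, and 7 of the 19 were of HMOX1, 7 of SRXN1, 3 of NQO1 and 2 of FTL.

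**Figure D2:**
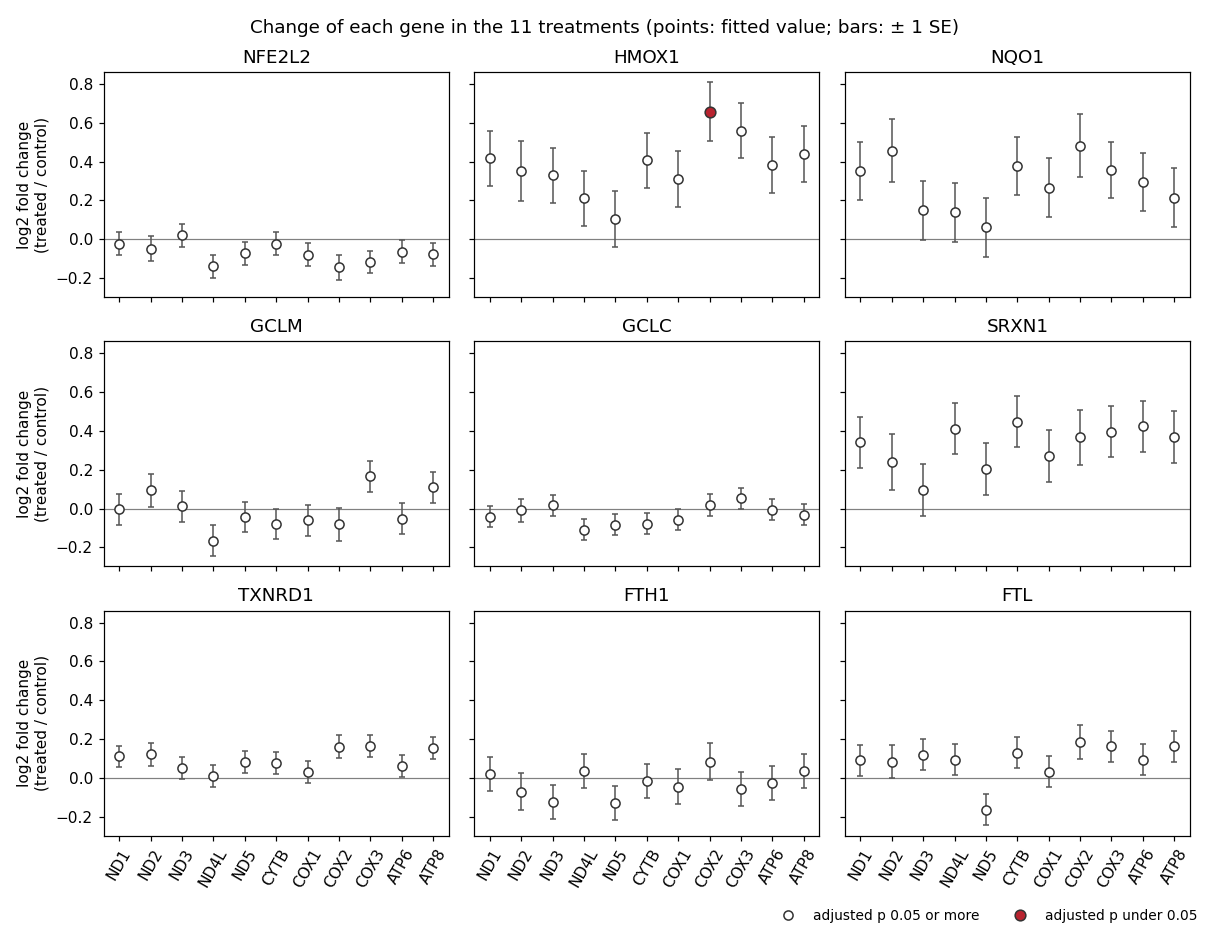
Log2 fold change of each gene in each treatment against the control (vertical axis, ± 1 SE), with filled red points where the adjusted p was under 0.05 and open points elsewhere. HMOX1, NQO1, SRXN1 and TXNRD1 lie above 0 in all 11 treatments, and the only red point is HMOX1 after COX2 silencing at 0.66.

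HMOX1 encodes heme oxygenase 1, which splits heme into biliverdin, iron and carbon monoxide. In control cells its level was 77.7 and 98.4 CPM in batch 1 and 64.7 and 55.6 CPM in batch 2, with a mean of 74.1 ± 18.5 CPM (SD, n = 4). After COX2 silencing it was 130 CPM in the library of batch 1 and 119 and 75.0 CPM in those of batch 2. All 3 lay above both controls of their batch, and the log2 fold change was 0.66 (SE 0.153, edgeR quasi-likelihood test, adjusted p = 0.0316). After COX3 silencing HMOX1 was at 129 and 132 CPM in batch 1 and 105 and 73.1 CPM in batch 2, again without overlap with the control, but the change of 0.56 (SE 0.141) missed the threshold with an adjusted p of 0.0639. COX1 silencing, which targets the third mRNA of the same complex, gave 113 and 99.0 CPM and then 106 and 47.2 CPM. The last of these, replicate 4, was the lowest HMOX1 level among the 46 libraries, and the change of 0.31 had an adjusted p of 0.643.

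The call for HMOX1 rested on few libraries. Without COX2 replicate 2 the adjusted p was 0.0723, without COX2 replicate 3 it was 0.312 with the fold change down to 0.45, without control replicate 1 it was 0.0738 and without control replicate 4 it was 0.141. Within batch 1 the change was 0.56 (1 treated library) and within batch 2 it was 0.69, with adjusted p-values of 0.141 and 0.327.

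The other treatments gave smaller differences in HMOX1, none of them called in the fit with the batch term. A fit with a term for each replicate number in its place, a pairing that the labels do not state, also called HMOX1 after ND1, CYTB, COX3 and ATP8 silencing. ND1 silencing gave 125 and 113 CPM in batch 1 and 85.8 and 72.5 CPM in batch 2, ATP8 silencing 125 and 116 CPM and then 94.4 and 66.7 CPM, and CYTB silencing 119 and 121 CPM and then 89.9 and 65.0 CPM. In these, as after ATP6 silencing (99.0, 132, 76.7 and 79.1 CPM) and ND3 silencing (106, 99.8, 88.3 and 73.3 CPM), no treated library fell to the level of a control of its batch. ND2 silencing gave 117 CPM in batch 1 and 88.8 and 60.3 CPM in batch 2, the last being below control replicate 3. ND4L silencing left HMOX1 at 114 and 105 CPM and at 71.7 and 57.0 CPM, and ND5 silencing at 98.1 and 106 CPM and at 67.6 and 51.4 CPM. The batches of the ND5 treatment overlapped with the control, and its log2 fold change of 0.10 was the smallest of the 11. Ordered by level, the 12 conditions ran from the control over ND5, ND4L, COX1, ND3, ND2, ATP6, CYTB, ND1, ATP8 and COX3 to COX2, and no step between neighbours exceeded the residual SD of 0.246 log2 units. That SD is of single libraries, while each level is fitted from several, so it does not test the order. Counted by library, 39 of 42 treated libraries lay above the mean of their batch's control.

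**Figure D3:**
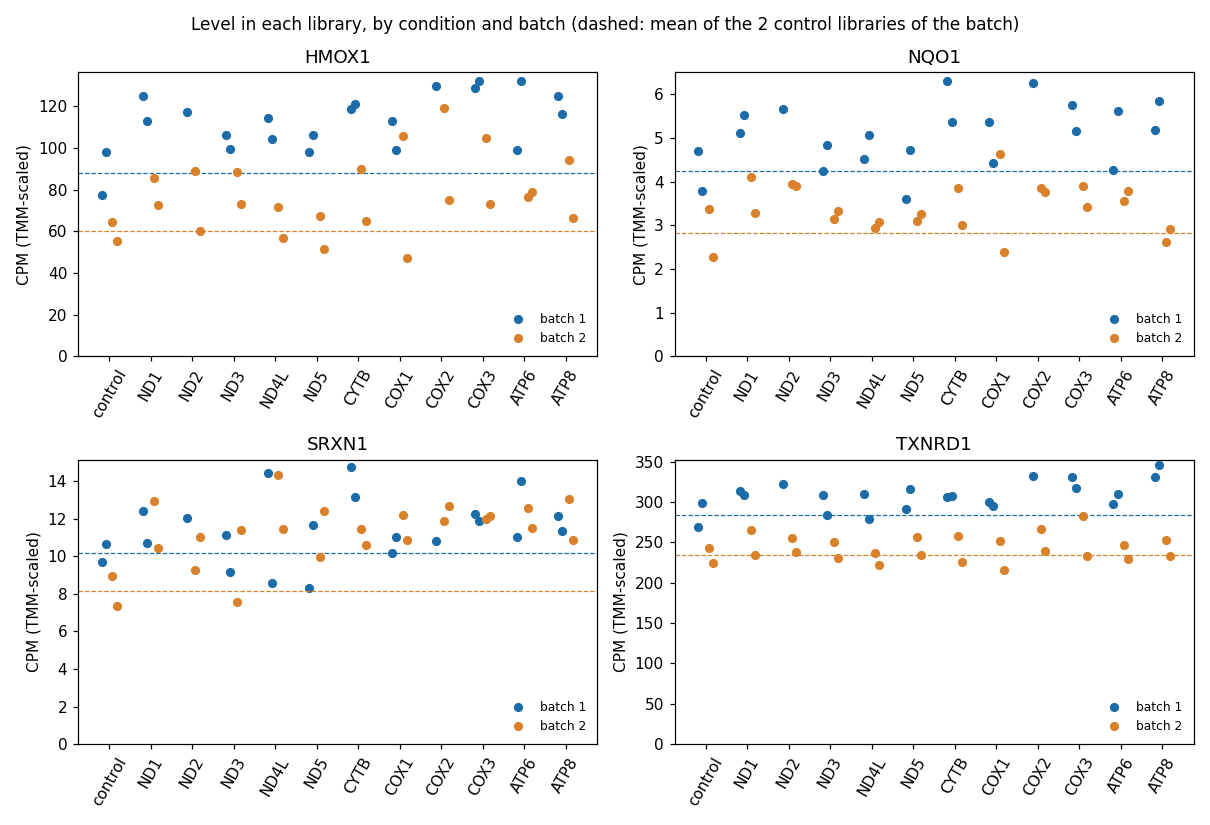
CPM of HMOX1, NQO1, SRXN1 and TXNRD1 in each of 46 libraries by condition, blue for batch 1 and orange for batch 2, with the mean of the 2 control libraries of each batch dashed. Most treated libraries lie above the dashed line of their own colour (39 of 42 for HMOX1), and batch 2 lies lower on average than batch 1 (76.4 against 113 CPM for HMOX1), by the least for SRXN1 (11.2 against 11.4 CPM).

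NQO1 encodes a quinone reductase that passes electrons to quinones in pairs and so avoids the semiquinone. Its control level was 4.70 and 3.79 CPM in batch 1 and 3.37 and 2.27 CPM in batch 2. After COX2 silencing it stood at 6.25 CPM in batch 1 and at 3.85 and 3.76 CPM in batch 2, a log2 fold change of 0.48 (SE 0.160) with an adjusted p of 0.144. After ND2 silencing it stood at 5.65 CPM and at 3.95 and 3.91 CPM (0.46, adjusted p = 0.998). COX2, ND2 and COX3 were the 3 treatments in which no treated library reached down to the control, and 38 of 42 treated libraries exceeded the mean of their batch's control. ND5 silencing gave the smallest change, 0.06, with libraries at 3.61, 4.72, 3.09 and 3.26 CPM that overlapped the control in both batches.

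SRXN1 encodes sulfiredoxin, which restores overoxidized peroxiredoxins. Control libraries held 9.67 and 10.7 CPM in batch 1 and 8.96 and 7.34 CPM in batch 2. After CYTB silencing the level was 14.8, 13.1, 11.4 and 10.6 CPM, with every library above its controls, and the log2 fold change of 0.45 (SE 0.132) had an adjusted p of 0.0876. The 4 COX3 libraries lay close together at 12.2, 11.9, 11.96 and 12.2 CPM (0.40, adjusted p = 0.193), and those of ATP6 at 11.04, 14.0, 12.6 and 11.5 CPM (0.42, adjusted p = 0.345). ND4L silencing gave the widest scatter, with 14.5 and 8.59 CPM in batch 1 and 14.3 and 11.5 CPM in batch 2. ND3 silencing gave the smallest change (0.10), with 11.1, 9.15, 7.58 and 11.4 CPM. Of 42 treated libraries 38 lay above the mean of their batch's control. Among the 11 treatments SRXN1 was lowest after ND3 silencing, while HMOX1 and NQO1 were lowest after ND5 silencing; whether these patterns differ was not tested.

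TXNRD1 encodes the cytosolic thioredoxin reductase, which uses NADPH to reduce thioredoxin. Its fold changes were all above 0 and all small, from 0.01 after ND4L silencing to 0.16 after COX3 silencing. COX3 libraries held 331 and 318 CPM in batch 1 and 283 and 233 CPM in batch 2, beside 269 and 299 CPM and 244 and 225 CPM in the control. Replicate 4 of the COX3 treatment lay below control replicate 3, and in no treatment did all libraries clear the controls of their batch. The lowest adjusted p, after COX2 silencing, was 0.198.

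GCLM and GCLC encode the modifier and catalytic subunits of glutamate-cysteine ligase, the rate-limiting enzyme of glutathione synthesis. Neither lay on the same side of the control in all treatments. GCLM lay above the control in 4 and below it in 7 treatments, between -0.17 after ND4L silencing and 0.17 after COX3 silencing. ND4L libraries held 59.3 and 61.2 CPM in batch 1 and 41.9 and 44.2 CPM in batch 2, while the controls held 59.2 and 62.7 CPM and 53.2 and 54.2 CPM, so only batch 2 was apart from its controls. COX3 libraries held 77.0 and 72.8 CPM in batch 1 and 64.9 and 46.5 CPM in batch 2. The fold changes of GCLC lay between -0.11 after ND4L silencing and 0.05 after COX3 silencing, and GCLC passed an unadjusted p of 0.05 in no treatment.

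The mRNA of NFE2L2, the gene of NRF2 itself, lay below the control in 10 of 11 treatments, with log2 fold changes from -0.14 after COX2 silencing to 0.02 after ND3 silencing, with no adjusted p under 0.265. COX2 libraries held 70.8, 68.0 and 66.6 CPM, against 80.2 and 80.3 CPM in the controls of batch 1 and 69.4 and 78.8 CPM in those of batch 2. Each of the 3 COX2 libraries lay below both controls of its batch, the 1 such case in the direction of a decrease among the 99 member tests. The share of all genes in that direction was not counted, so this case is not read as a result about NFE2L2.

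The ferritin subunits build the shell that stores iron, and their translation is known to be set by iron regulatory proteins beside the transcription by NRF2. FTL lay above the control in 10 treatments, up to 0.18 after COX2 silencing. The exception was ND5 silencing, with 266 and 302 CPM in batch 1 and 175 and 143 CPM in batch 2 beside 272 and 310 CPM and 196 and 194 CPM in the control, a log2 fold change of -0.16 (adjusted p = 0.532). FTH1 showed no common direction, with 4 treatments above and 7 below the control and a range from -0.13 to 0.08. The lowest adjusted p of FTH1 was 0.691.

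GCLM and TXNRD1 hold the core letters of the antioxidant response element, TGACNNNGC, close to a start site, and these stretches are shown because the element is the site through which NRF2 acts on its targets. RefSeq windows (GRCh38.p14) of 250 bases before to 50 bases after a start were searched on both strands, with 9 windows for 7 of the members; HMOX1 and FTH1 had no entry. The motif is in capitals and each stretch is read along the gene, so that capitals beginning with GC carry the motif on the opposite strand.
GCLM, chr1:93909441-93909479, minus strand: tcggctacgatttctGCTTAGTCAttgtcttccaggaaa
TXNRD1, chr12:104215665-104215703, plus strand: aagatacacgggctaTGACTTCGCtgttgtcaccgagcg
TXNRD1, chr12:104286915-104286953, plus strand: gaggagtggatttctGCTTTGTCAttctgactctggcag
The first TXNRD1 window held 1 more match, across the start site. Of all 35116 windows 13.35% held a match, and of the 9 member windows 3 did. Counted by gene, 16.1% of the 27305 genes with a window had a match in at least 1 of them, and 21 of the 52 further pathway genes with a window did, a share that was not tested. Of the members with a match, TXNRD1 lay above 0 in all 11 treatments and GCLM in 4. Of those with a window and no match, SRXN1 and NQO1 lay above 0 in all 11, FTL in 10, GCLC in 3 and NFE2L2 in 1. A match is no measured site, and enhancers farther away were not searched.

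Averaged over the 11 treatments, HMOX1 lay 0.38 log2 units above the control (SE 0.109, adjusted p = 0.106), SRXN1 0.32 (SE 0.101, adjusted p = 0.136), NQO1 0.29 (SE 0.114, adjusted p = 0.273) and TXNRD1 0.09 (SE 0.0419, adjusted p = 0.352). FTL stood at 0.09, GCLM at -0.01, FTH1 at -0.03, GCLC at -0.03 and NFE2L2 at -0.07. None of the 9 was called by DESeq2, which put SRXN1 at an adjusted p of 0.0551 and gave NQO1 no adjusted p. None was called by edgeR either, where 0.261% of all genes were called. At an unadjusted p under 0.05 there were 4 of 9, all higher, beside 11.9% of all genes in either direction. The median of the members was 0.09 and that of all genes -0.0013. Within batch 1 the mean changes were 0.39 for HMOX1, 0.17 for SRXN1, 0.29 for NQO1 and 0.13 for TXNRD1, and within batch 2 they were 0.36, 0.49, 0.28 and 0.05. GCLM stood at 0.09 in batch 1 and at -0.12 in batch 2. In a test of the difference between the batches in this mean effect, chosen after the data were seen, no gene of the 20272 was called, 4.78% of them passed an unadjusted p of 0.05, and no member did (the lowest adjusted p of a member in edgeR was 0.982).

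The 11 treatments were also compared with each other, which leaves the control libraries out of the question. No member was called by edgeR or DESeq2, and edgeR called 0.306% of all genes. GCLM, FTL and HMOX1 passed an unadjusted threshold of 0.05 in edgeR, but their adjusted p-values were 0.233, 0.346 and 0.483. GCLM spanned 0.33 log2 units from ND4L to COX3, and FTL 0.35 from ND5 to COX2. The step from ND5 to the control, the next condition in the order of FTL, was 0.16 and exceeded the residual SD of single libraries (0.131), the one such step among the 9 members.

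For 6 of the 9 members the difference between the batches was larger in size than the largest of the 11 treatment changes. In batch 2, all 9 members were lower and 8 of them were called lower. Of all genes, 57.1% were called in either direction and 27.9% were called lower. FTL fell by 0.66 log2 units (SE 0.0336, adjusted p = 3.45e-23), NQO1 by 0.59 (SE 0.0613) and HMOX1 by 0.58 (SE 0.0592). GCLM fell by 0.37, TXNRD1 by 0.35, FTH1 by 0.23, NFE2L2 by 0.17 and GCLC by 0.06, and only SRXN1, at -0.03 (adjusted p = 0.672), was not called. The call of GCLC was lost without COX1 replicate 4 (adjusted p = 0.0531) or CYTB replicate 4 (0.0507). HMOX1 averaged 113 ± 14.0 CPM (SD, n = 22) in batch 1 and 76.4 ± 18.0 CPM (SD, n = 24) in batch 2, and its mean was lower in batch 2 in all 12 conditions. NQO1, FTL, TXNRD1, GCLM and NFE2L2 were also lower in all 12, FTH1 in 11, GCLC in 8 and SRXN1 in 5. The batch took 83.9% of the variance of FTL over the libraries, 78.8% of that of TXNRD1 and 54.1% of that of HMOX1, but 0.443% of that of SRXN1. The condition took 18.2% for HMOX1 and 38.6% for SRXN1. Day, reagents and sequencing of a batch cannot be told apart.

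**Figure D4:**
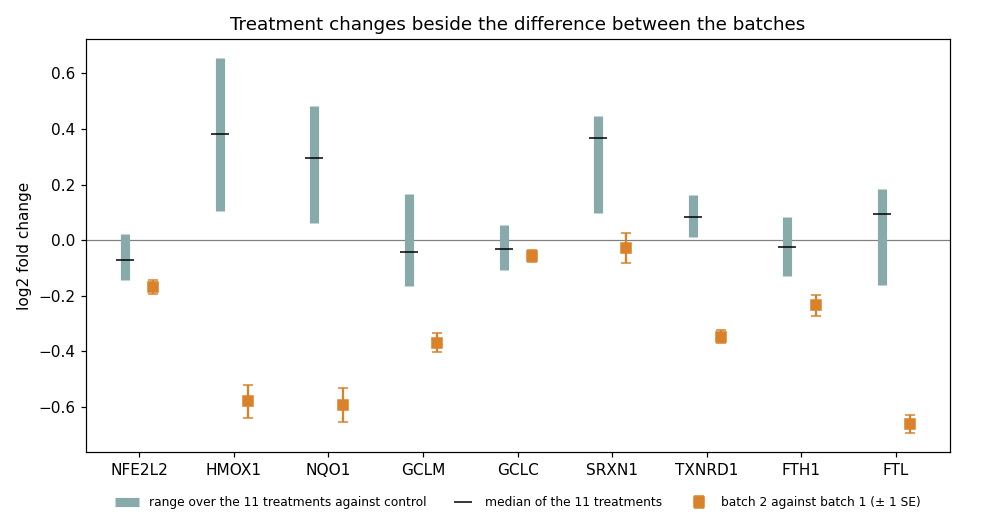
Log2 fold changes of each gene: the grey-green bar spans the 11 treatments against control with a line at their median, and the orange square gives batch 2 against batch 1 with ± 1 SE. FTL, NQO1 and HMOX1 differ the most between the batches (-0.66, -0.59 and -0.58), and the highest treatment change is that of HMOX1 (0.66).

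Of 64 further genes of the pathway with enough reads, sorted into 7 lists, 1 was called in any treatment. This was GSS, glutathione synthetase, which joins glycine to the dipeptide made by GCLC and GCLM. Control libraries held 52.1, 51.5, 53.2 and 48.3 CPM of GSS, those of COX2 62.0, 63.4 and 62.3 CPM, those of CYTB 65.4, 57.7, 60.7 and 62.6 CPM and those of COX3 62.4, 57.8, 61.0 and 61.4 CPM. No library of these 3 treatments came down to a control level. GSS rose by 0.28 after COX2 silencing (adjusted p = 0.00999), by 0.27 after CYTB silencing (adjusted p = 0.00782) and by 0.24 after COX3 silencing (adjusted p = 0.0186), and by 0.18 (SE 0.0398, adjusted p = 0.0292) in the mean of the treatments. Leaving out control replicate 4 ended all of these calls, with adjusted p-values of 0.105, 0.0989, 0.184 and 0.426 in that order. The COX2 call was also lost without COX2 replicate 2 (0.0685) or 3 (0.0886), the CYTB call without CYTB replicate 1 (0.0965), the COX3 call without COX3 replicate 1 (0.125), COX3 replicate 4 (0.0533) or control replicate 2 (0.0573), and the mean call without control replicate 1 (0.0505), 2 (0.0781) or 3 (0.103). The GSS difference between the batches was 0.04 (adjusted p = 0.139). When the 11 treatments were compared with each other, edgeR called none of the 64 genes, where 0.306% of all genes were called. Its lowest adjusted p was 0.0723, for TFRC and PRDX1. DESeq2 called TFRC (adjusted p = 0.000959), PRDX1 (0.00561), GSS (0.0141) and SLC7A11 (0.0193).

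The 3 calls of GSS were the only ones among 704 tests of these lists; at an unadjusted p under 0.05, 78 tests were higher and 14 lower, where 5.38% of the tests of all genes were higher and 4.41% lower. Of the 78 and 14, 28 higher and 0 lower were among the 12 glutathione genes, which hold the cystine importer subunits and the glutathione transferases; GPX2, a glutathione peroxidase at a mean of 0.276 CPM, had the lowest mean change of that list (-0.15, SE 0.472, adjusted p = 0.938). The 5 heme and bilirubin genes gave 16 higher and 0 lower of 55 tests, and BLVRA, which turns biliverdin, the product of HMOX1, into bilirubin, had the largest mean change among them (0.18, adjusted p = 0.145), with FECH, ferrochelatase, the smallest (0.03). The 15 regulators and partners of NRF2 gave 14 higher and 0 lower of 165 tests. Among them MAFF, a small MAF protein, stood at 0.36 (SE 0.159, adjusted p = 0.340) from a mean of only 2.74 CPM, and SYVN1, a ubiquitin ligase, at -0.06.

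The 6 NADPH genes gave 10 higher and 1 lower of 66 tests, from IDH1 (-0.03) to ME1, malic enzyme (0.11, adjusted p = 0.344). The 3 thioredoxin and peroxiredoxin genes gave 4 higher and 1 lower of 33, between PRDX6 (0.0017) and TXN, thioredoxin (0.09). The 13 detoxification genes tested of 15 listed gave 3 higher and 2 lower of 143. Their extremes were OSGIN1 at 0.25 (SE 0.275, mean of 0.945 CPM) and ABCC2 at -0.20 (SE 0.106, mean of 3.99 CPM). Several others of the list had a mean level below that of OSGIN1, and UGT1A6 and ABCC3 had too few reads. The 10 iron handling genes were the one list with more lower than higher tests, 10 against 3 of 110, from FBXL5 (-0.07) to PCBP1 (0.07). Median mean changes were 0.12 for the heme and bilirubin list, 0.06 for the glutathione list, 0.07 for the detoxification list, 0.05 for the NADPH list, 0.05 for the thioredoxin and peroxiredoxin list, 0.03 for regulators and partners and -0.02 for iron handling, beside -0.0013 for all genes. Between the batches, 30 of the 64 genes were called lower and 12 higher in batch 2, where 57.1% of all genes were called and 27.9% were called lower.

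**Figure D5:**
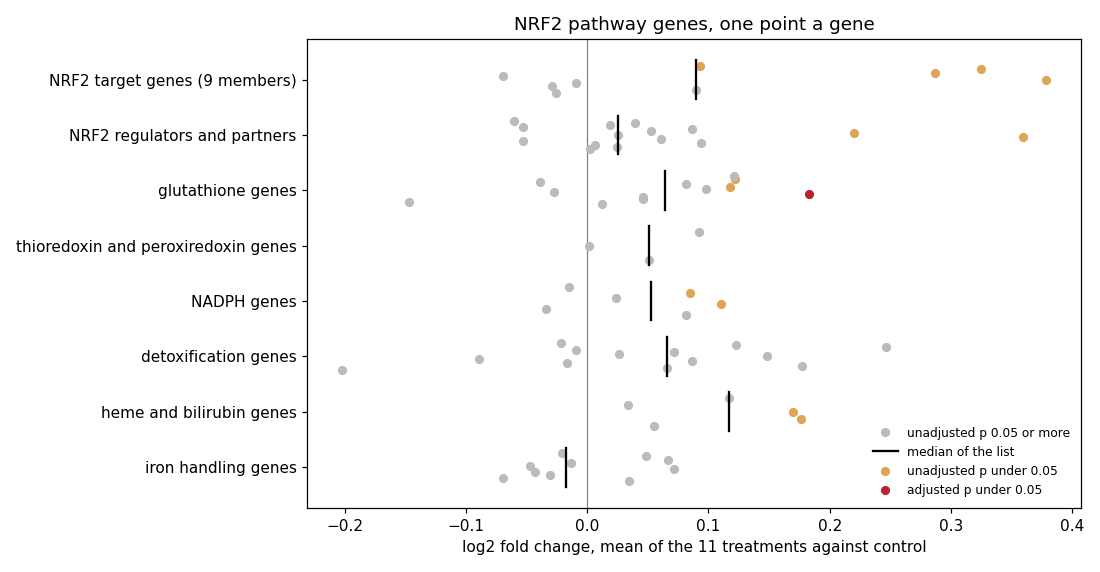
Log2 fold change of the mean of the 11 treatments against control (horizontal axis) for the 9 members and 7 further lists, 1 point a gene, red where the adjusted p was under 0.05, orange where only the unadjusted p was, grey otherwise, with the median of a list as a black line. GSS (0.18) is the only red point, and HMOX1 (0.38), SRXN1 (0.32) and NQO1 (0.29) lie farthest right among the members.

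Across the 12 conditions, after the batch was taken into account, HMOX1 levels ran with those of NQO1 (Pearson r = 0.85), FTL (0.79), TXNRD1 (0.79) and SRXN1 (0.65). GCLM ran with GCLC (0.65) and hardly with NQO1 (0.17), and NFE2L2 ran against SRXN1 (-0.60) and HMOX1 (-0.41). These are descriptions over 12 fitted levels that share libraries, so members of 1 library also share its errors. Among 10429 other genes with a mean of at least 10 CPM, the 3 most like HMOX1 in this pattern were ENO1 (0.95), DMKN (0.94) and CLIC1 (0.94), and the 3 most like SRXN1 were PCCB (0.95), MRPL14 (0.95) and MRPL54 (0.94). NQO1 was closest to MIIP (0.93), MRPL21 (0.92) and PPP1R3D (0.92), and TXNRD1 to LCP1 (0.95), FUCA2 (0.93) and PFN2 (0.93). For GCLM they were MTFR1 (0.96), RPAP3 (0.93) and VEZT (0.92), and for GCLC GPATCH11 (0.91), SMG8 (0.89) and NUP188 (0.88). NFE2L2 came closest to CREG1 (0.92), POT1 (0.90) and CGGBP1 (0.88), FTH1 to UBALD2 (0.91), KXD1 (0.87) and SYNGR2 (0.86), and FTL to SMPDL3B (0.91), SLC1A5 (0.90) and NAB2 (0.89). No member was among the genes closest to another member.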

How the data were processed

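Poly(A) RNA was sequenced, and the authors deposited raw read counts for 58735 genes in 46 libraries with no normalization, along with a gene length in bases, which served here for RPKM and 1 alternative. The submitters' processing notes name GRCh38.p12, R 4.3.0, DESeq2 1.40.2 and limma 3.56.2; the read mapping and counting tools, and whether strand was used, are not given in the sources used here, and the labels describe single-end but the study's methods paired-end reads. Gene identifiers match GENCODE release 29. The deposited counts were tested here by the quasi-likelihood method of edgeR 4.0.16 under R 4.3.3 (TMM scaling, terms for condition and batch) over the 20272 genes that passed filterByExpr at a minimum count of 10, with Benjamini-Hochberg adjustment over all of them. DESeq2 1.42.0, other scalings and filters, each batch alone and the removal of each library were alternatives. On simulated counts for 20272 genes with COX2 against control changed, 57 of 67 genes changed 1.3-fold, 67 of 67 changed 1.5-fold and 66 of 66 changed 2-fold were called, together with 13 unchanged genes. The changed genes had a mean of at least 10 CPM, which NQO1 at 4.19 CPM did not reach. Spread was simulated from the trend over all genes, without each gene's own spread, so these rates need not hold for the members. The 66 replicate pairs differed beyond sampling noise (chi-square over its degrees of freedom 3.47 to 24.8), so none was treated as one library. P-values measure the spread between libraries, which the labels name only as replicates and the study's methods as biological replicates. Members and lists were chosen with earlier results of these data known. All 9 members were named in every treatment, and of other pathway genes those called and the highest and lowest mean change of each list. The 3 genes most like each member were those with the highest Pearson r over 12 conditions at a mean of at least 10 CPM.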

Additional observations from a re-analysis of the deposited data

Results flagged for a closer look

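In the control, NFE2L2 stood at 69.4 CPM in replicate 3, apart from 78.8, 80.2 and 80.3 CPM in the other libraries; the gap took 0.861 of the group's range, above Dixon's critical value for 4 values. It was the only such value in 90 groups of 4 libraries (9 genes in 10 conditions), where chance flags about 1 in 20 if the 4 values are alike in all else; each group held 2 libraries of each batch, so that rate does not apply as it stands, and the value itself is from batch 2, where NFE2L2 was lower (-0.17). GCLM lay above both controls of batch 1 and below both of batch 2 in every library after ND3 silencing (68.7 and 66.4 CPM, then 49.6 and 48.7 CPM, fitted log2 fold change 0.011) and after ATP8 silencing (71.4 and 75.7 CPM, then 51.8 and 51.3 CPM, fitted log2 fold change 0.11). The difference between the batches in these treatments was not tested. For the mean of all treatments it was -0.20 (edgeR, adjusted p = 0.982). All 9 members were searched for such opposite splits, with only 2 libraries against 2 controls in each batch. How many of all genes split in this way was not counted, so these cases are not read as a result about GCLM.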

How the results depend on the processing

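Of the 99 member tests, the call of HMOX1 after COX2 silencing was lost with no batch term (0 calls) and in batch 2 alone (0); batch 1 alone gave 1 call, of HMOX1 after COX3 silencing. It was joined by others under DESeq2 (2 calls), with only the groups compared (7) and with no filter on low counts (13, a fit over 47354 genes); the range of its adjusted p was 6.58e-21 to 0.685, and the cause was not tested. Without one library at a time the count was 0 to 2, with 0 when COX2 replicate 2, control replicate 1 or control replicate 4 was left out and 2 without COX1 replicate 3, COX1 replicate 4, COX2 replicate 4, COX3 replicate 4 or ND4L replicate 2. For the mean of the treatments the count rose from 0 to 2 with no filter (0 throughout when libraries were left out), and for differences among treatments to 3 with no filter and to 1 without COX3 replicate 4 (range 0 to 1). Of 8 members called between the batches, 7 to 8 were called under every alternative. The 704 tests of further pathway genes gave 3 calls, but 0 with no batch term, 0 in batch 1 alone, 0 in batch 2 alone, 6 with DESeq2, 9 with only the groups compared, 15 with no filter and 0 to 5 without one library (0 without control replicate 4, 5 without COX2 replicate 4).

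With the replicate number as a block in place of the batch, 6 member tests, 1 member in the mean, 1 among treatments and 7 further tests were called. These member tests were HMOX1 after silencing of ND1 (adjusted p = 0.0348), CYTB (0.0290), COX2 (0.000478), COX3 (0.000906) and ATP8 (0.0356) and TXNRD1 after COX3 silencing (0.0498), and the member in the mean (0.0118) and among treatments (0.0284) was HMOX1. Not every same-number pair deviated together: 96 of 242 correlated above 0.1 (mean 0.045), with 16 and 13 of 55 for replicates 1 and 2 and 33 and 34 of 66 for replicates 3 and 4, so the block is a hint from the data and not from the design. The mean change of GCLM reversed in batch 1 alone (0.093) and without control replicates 3 (0.018) or 4 (0.027), with a range of -0.054 to 0.027 when libraries were left out, and that of FTH1 without control replicate 4 (0.0033, range -0.048 to 0.0033). Of 99 values of the members' mean changes under alternatives, 95 kept direction and side of the threshold, 3 passed it and 1 reversed. RLE scaling, nuclear library sizes, removal of a trend on gene length, a minimum count of 50 and COX3 replicate 4 drawn down to the median depth kept 1 member call, and no scaling moved the median of all genes by 0.1. The 45 to 345 reads of NQO1, at most 164 outside COX3 replicate 4, limit its precision more than that of other members.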

Other observations

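Within batch 2, replicate 4 was lower than replicate 3 in all 12 conditions for TXNRD1, in 11 of 12 for HMOX1 and in 11 of 12 for GCLC, while FTH1 was lower in 5 of 12. Within batch 1, replicate 2 was lower than replicate 1 in 5 of 10 conditions for TXNRD1, 5 of 10 for HMOX1 and 3 of 10 for GCLC. The control followed this order too, at 64.7 and 55.6 CPM for HMOX1. The replicate number within a batch took 16.2% of the variance of HMOX1 and 25.0% of that of GCLC over the libraries, beside 54.1% and 10.9% for the batch. With this number as a block in place of the batch, the SE of the HMOX1 change after COX2 silencing was 0.105, beside 0.153 with the batch term.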
